A study of Mus musculus with 12 samples.

Results

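The whole cerebral hemisphere of the embryonic mouse was set against the 5 pieces into which hemispheres were cut, to see where its mRNA levels fell among theirs. The hemisphere arrays were chosen by their titles and make up 2 of 12 arrays. The other 10 are 2 arrays each of the medial, dorsal, ventral, rostral and occipital pieces. All came from E16.5 (embryonic day) mouse cortex, and the labels name no treatment, strain, genotype, sex or number of embryos. The protocol text has a lateral piece and no rostral one, and pieces are named here by the array titles. Replicates came from independent dissections, so p-values rest on the spread between 2 dissections per group. Each array measured 12422 mouse probe sets, and 5832 of them passed the filter on low values and were compared.

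At this age the pallium is adding neurons to the upper layers of the cortex. Dividing radial glia line the ventricle, intermediate progenitors that express Eomes lie above them, and glutamatergic neurons collect in the cortical plate. GABAergic interneurons are born in the ganglionic eminences below the pallium and migrate into it, so a basal piece holds striatal and GABAergic genes that a medial or dorsal piece holds at lower levels. If the pieces make up the hemisphere and the arrays share a scale, each transcript of the hemisphere should lie between its lowest and its highest piece. In bulk tissue, fewer cells of a type and less RNA per cell cannot be told apart.

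The arrays labelled rostral and occipital went against their labels. Rostral replicate 2 correlated with occipital replicate 1 at r = 0.963 across the tested probe sets, above the 0.934 between the rostral replicates and the 0.936 between the occipital replicates. The rostral minus occipital differences of the replicates correlated at -0.354. The remaining pairs of a rostral with an occipital array correlated at 0.944 to 0.949. A low r between replicates was not particular to these 2 labels. The hemisphere replicates correlated at 0.901. That was below hemisphere replicate 1 with rostral replicate 2 (0.926) and hemisphere replicate 2 with occipital replicate 1 (0.933). An exchange of these arrays inside a replicate number leaves the range over all 5 pieces the same. An exchange between numbers could change it. Every value given for rostral or occipital alone depends on those labels.

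In each replicate the hemisphere lay inside the range of its pieces for most probe sets, but not for all. Its level lay above all 5 pieces of the same replicate number, in both replicates, for 226 of 5832 probe sets (3.88%), and below all 5 in both for 181 (3.1%). Together these are 407 probe sets (6.98%). For nearly as many, 417 (7.15%), the hemisphere lay outside on opposite sides in replicate 1 and replicate 2. Before the filter 457 probe sets met the rule, 267 above and 190 below.

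Taken alone, a replicate put far more probe sets outside, 2176 (37.3%) in replicate 1 and 1887 (32.4%) in replicate 2. For a piece against the other 5 arrays of its number, this share ran from 19.7% (dorsal) to 50.5% (ventral) in replicate 1. In replicate 2 it ran from 21.2% (rostral) to 49.2% (ventral). The count over both replicates was also made for each piece. It gave 1681 probe sets (28.8%) outside on the same side for ventral, 881 (15.1%) for medial and 440 (7.54%) for dorsal. It gave 139 (2.38%) for rostral and 125 (2.14%) for occipital. Opposite sides were rare for the ventral (91), medial (95) and dorsal (54) pieces. For the rostral (184) and occipital (345) pieces, as for the hemisphere, they outnumbered the same-side cases.

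**Figure D1:**
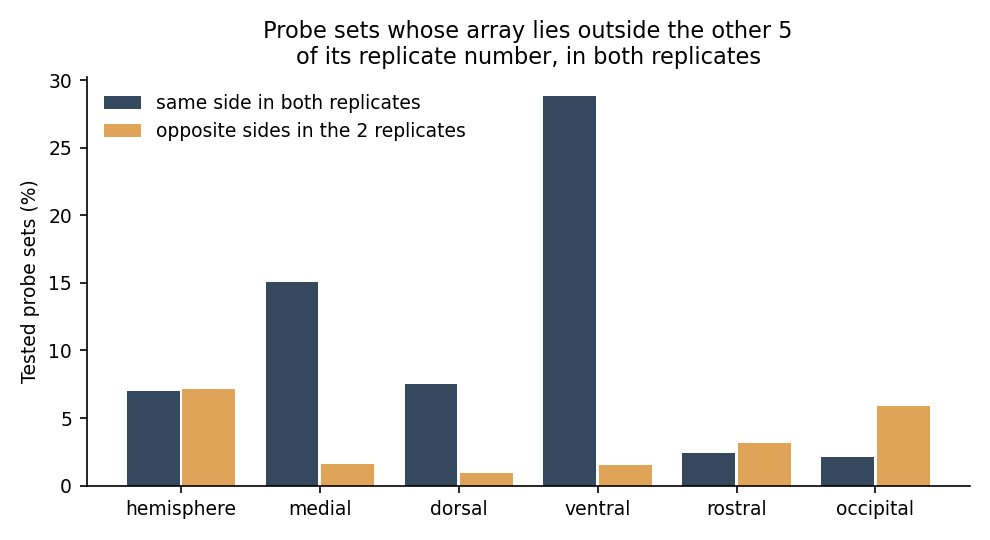
Bars give the share of the 5832 tested probe sets (%) for which a group's array lay outside the other 5 arrays of its replicate number in both replicates, on the same side or on opposite sides. The hemisphere stood outside on the same side for 6.98% and on opposite sides for 7.15%, against 28.8% and 1.56% for the ventral piece.

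Most of these excursions were small. The smaller of the 2 distances from the nearest piece had a median of 1.04-fold among the 226 above and 1.05-fold among the 181 below. It reached 0.5 on the log2 scale for 2 probe sets above and 5 below, and 1 for none. At the edge of the rule, Pfdn2 had 6504.5 in hemisphere replicate 2 against 6504.2 in its highest piece, and just failing it, B3galt6 had 3509.2 in hemisphere replicate 1 against 3513.4. On the lower side, Sgk1 had 1980.1 in hemisphere replicate 2 against 1980.5 in its lowest piece, and Nampt, just failing, had 1139.9 in hemisphere replicate 1 against 1139.7. Values are average differences, the deposited linear signal.

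The deviation of the hemisphere from the mean of the pieces of its number did not carry over from replicate 1 to replicate 2. Arrays are matched here by number, which the labels do not tie to a shared dissection. Across the 5832 probe sets the deviations of replicate 1 and replicate 2 correlated at r = -0.005, and 2880 (49.4%) had the same sign. The same correlation, for a piece against the mean of the other 4, was 0.756 for ventral, 0.584 for dorsal, 0.508 for medial, -0.155 for rostral and -0.218 for occipital. These are descriptions over probe sets that share arrays. In replicate 1, 84.6% of the probe sets lay within 0.5 log2 of the mean of the pieces, and in replicate 2, 88.5%. The median absolute deviation was 0.227 and 0.182 log2, and the median span between the lowest and highest piece was 0.598 and 0.565 log2.

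**Figure D2:**
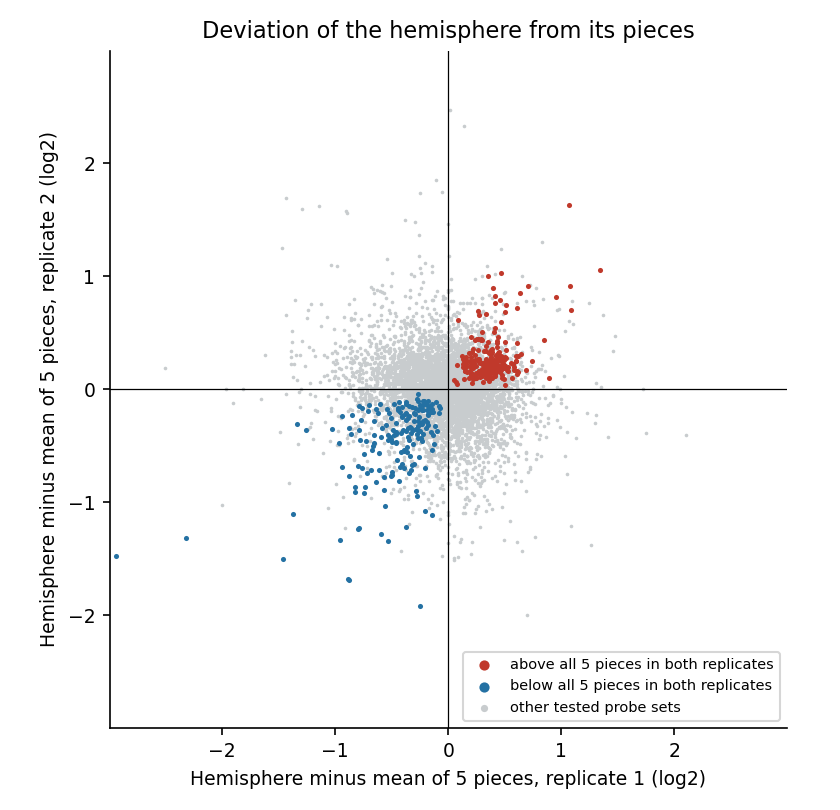
Each point is a tested probe set, placed by the hemisphere minus the mean of the 5 pieces (log2) in replicate 1 (x) and replicate 2 (y), coloured where the hemisphere lay above or below all 5 pieces in both. The cloud has no slope (r = -0.005), and the 226 and 181 coloured probe sets sit at its upper right and lower left, where the rule puts them.

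In limma, 0 of the 5832 probe sets differed between the hemisphere and the mean of the 5 pieces (0% called, Benjamini-Hochberg adjusted p under 0.05), while 277 had an unadjusted p under 0.05. The smallest adjusted p was 0.409. No gene named as above or below the pieces therefore passed this test, and their levels are given as descriptions. In simulated arrays with the same spread, 54% of 1 log2 changes and 88% of 2 log2 changes were recovered for this comparison. The simulation drew noise independently for each array and planted enough changes that 151 probe sets passed, unlike in the real arrays. Its shares therefore do not give the power behind the 0 calls.

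Among genes above every piece, Adcy3, an adenylyl cyclase best known from neuronal cilia, stood farthest out. It had 2554 and 2377 in the hemisphere arrays. Its pieces had 1034 and 614.8 (medial), 1442 and 1303 (dorsal), 1367 and 1368 (ventral), 728.4 and 1196 (rostral), and 272 and 1305 (occipital). The hemisphere was 1.77-fold and 1.74-fold over the highest piece, and the mean was 2465 ± 125 in hemisphere arrays (SD, n = 2) against 1063 ± 395 in piece arrays (SD, n = 10). The limma difference from the mean of the pieces was 1.20 ± 0.26 log2 (SE, adjusted p = 0.867).

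Ccrl2, a chemokine receptor-like protein, had 1779 and 1442 in the hemisphere, 1.59-fold and 1.44-fold over its highest piece, with 4 of the 10 piece arrays under the floor of 693.5 to which low values were raised. Nsmf, which carries signals from NMDA receptors to the nucleus, had 4429 and 3754 in the hemisphere against pieces of 930.6 to 3173 in replicate 1 and up to 1825 in replicate 2. Its other tested probe set lay inside the range, at 1885 and 1082 in the hemisphere. Most of the named genes above the pieces were dim, and 9 of the 12 had hemisphere means of 4091 or less.

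Cst3, which encodes the protease inhibitor cystatin C, is one of the 3 brighter ones. It had 19225 and 21323 in the hemisphere against 11399 to 14858 in the pieces of replicate 1 and 10465 to 15690 in those of replicate 2. The second Cst3 probe set was also above every piece, with 33053 and 24956 in the hemisphere against highest pieces of 29235 and 24906, but fell back inside after quantile normalization. Ppa1, the cytosolic inorganic pyrophosphatase, had 18260 and 21286 in the hemisphere, 1.2-fold over the highest piece in each replicate. Atp5md, a small subunit of ATP synthase, had 43478 and 30397, which was 1.25-fold and 1.14-fold over the highest piece.

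The other named genes above the pieces were Mark1, a kinase that detaches tau from microtubules, Lrrfip1, Kat2b, a histone acetyltransferase, Wwc1, also called KIBRA, Comtd1, and Inhbc, a subunit of the activin family. Mark1 had 1975 and 1498 in the hemisphere, 1.28-fold and 1.49-fold over its highest piece. Lrrfip1 had 2145 and 2300, 1.24-fold and 1.4-fold over it. The second Wwc1 probe set did not share the position: its hemisphere level was 5402 in replicate 1, inside pieces of 4979 to 7272, and 7592 in replicate 2, above pieces of 4852 to 6109.

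Below every piece, the farthest probe set had no gene symbol, with 874.9 and 584.4 in the hemisphere against lowest pieces of 1621 and 1262. The farthest with a symbol was that of Tnc, the extracellular matrix protein tenascin C made by radial glia. This f_at probe set had 1035 and 490.3 in the hemisphere. Its pieces had 2110 to 4364 in replicate 1 and 1236 to 1796 in replicate 2. The hemisphere was 2.04-fold below the lowest piece in replicate 1 and at least 1.78-fold below it in replicate 2, where it was under the floor. The brighter Tnc probe set was below the pieces in replicate 1 and inside them in replicate 2, with 3258 and 8172 in the hemisphere against 4250 to 11753 and 4858 to 14567 in the pieces.

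Saysd1 had 974.3 and 685.7 in the hemisphere, against 1560 to 2032 and 1554 to 2558 in the pieces, and its limma difference, with replicate 2 set to the floor, was -1.28 ± 0.21 log2 (SE, adjusted p = 0.409). Ssr1, a subunit of the translocon-associated complex of the endoplasmic reticulum, had 1390 and 1788 in the hemisphere against 2017 to 2797 and 3046 to 3649 in the pieces. Its second probe set was also below all pieces in replicate 2 (680.3 against 1189 to 1446), and in replicate 1 it had 1573 against a lowest piece of 1557. Klf7, a transcription factor of postmitotic neurons, had 1434 and 2063, 1.35-fold and 1.45-fold below its lowest piece. Mogs, the glucosidase that begins trimming of N-linked glycans, had 1464 and 1229, 1.34-fold and 1.47-fold below it. By the rule that chose them, these 4 genes lay below every piece of the same number in both hemisphere arrays.

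In 2 named cases the low value came from a probe set of class r_at, whose probes were picked with some selection rules dropped, and another probe set of the gene lay elsewhere. Sf3a2, a subunit of the splicing factor SF3a, had -835.6 and 1643 in the hemisphere against 4566 to 6741 and 2834 to 11710 in the pieces. Its f_at probe set had 12315 and 16927 in the hemisphere, below the pieces in replicate 1 and above them in replicate 2. Cyc1, cytochrome c1 of respiratory complex III, had 233.6 and 1121 on the r_at probe set, below every piece, and 38694 and 39946 on its bright probe set, above every piece (highest 33102 and 36862).

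The remaining named genes below the pieces were Eif3f, a translation initiation factor subunit, Tcf20, a transcriptional coregulator, Kif5c, a neuronal kinesin heavy chain, Gpd2, the mitochondrial glycerol-3-phosphate dehydrogenase, and Mettl8, an RNA methyltransferase. Kif5c had 160.7 and 538.4, both under the floor, against 869 to 2308 and 1184 to 2584 in the pieces. Tcf20 had 1339 and 635.6 against 1753 to 3126 and 1447 to 2839. A second Mettl8 probe set, which failed the filter, lay above all pieces in both replicates. Over the 24 named genes, adjusted p in limma ran between 0.409 and 0.962.

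**Figure D3:**
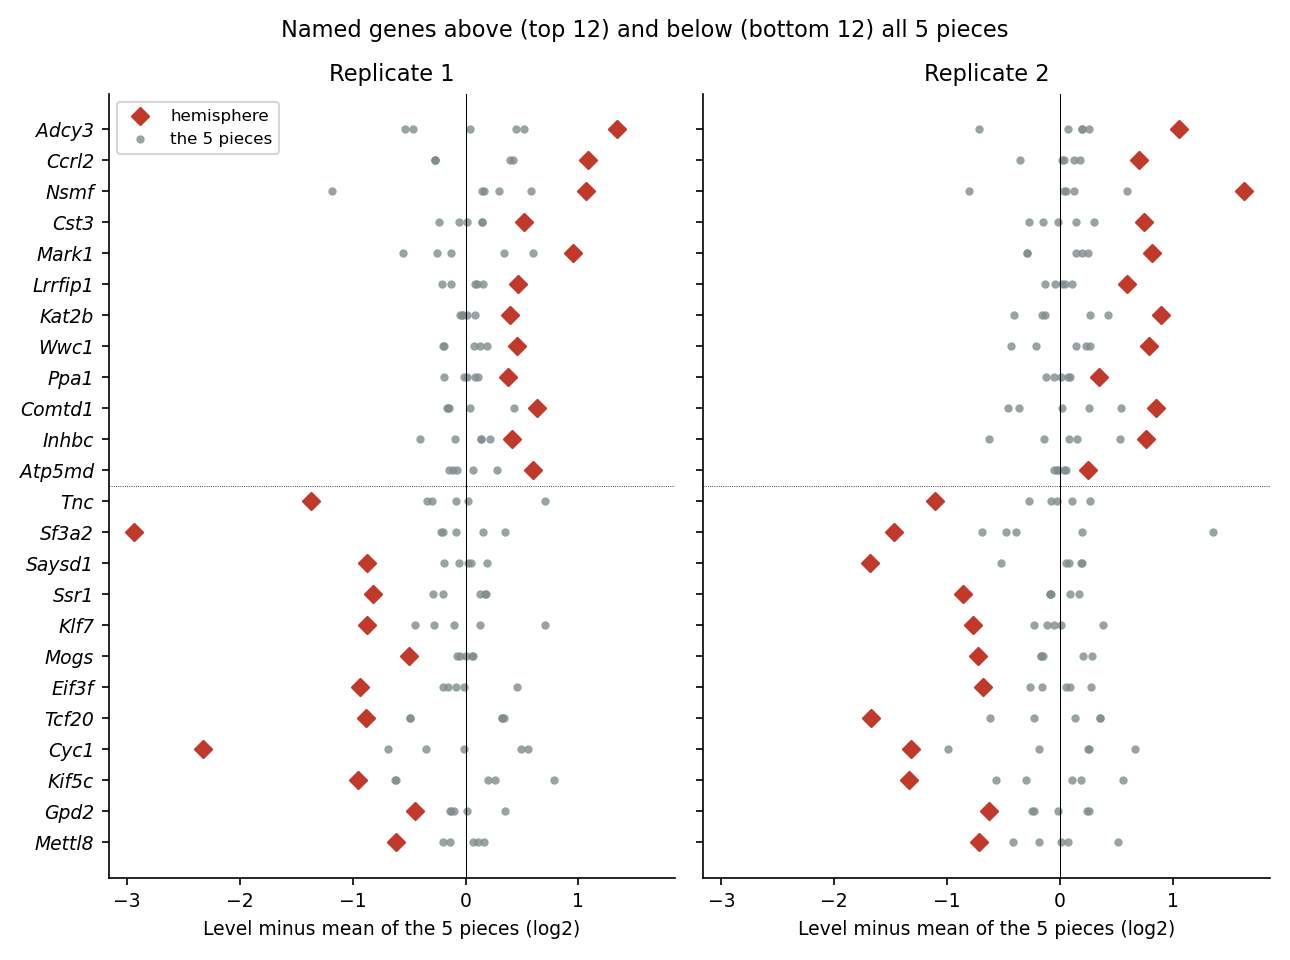
Levels of the 24 named genes minus the mean of the 5 pieces (log2), with the hemisphere as a red diamond and each piece as a grey dot, replicate 1 left and replicate 2 right. The diamond lies outside the dots in both panels for every gene, by rule, and the gap differs between panels, as for Sf3a2 (at least 6.58-fold and 1.72-fold below the lowest piece).

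Other probe sets of the member genes did not generally repeat the position. Genes above the pieces had 55 other tested probe sets, of which 8 were also above in both replicates and 2 were below. Genes below had 56 others, of which 0 were also below and 2 were above. Of these others, 23 of 55 and 13 of 56 lay on the member's side of the mean of the pieces in both replicates. Among all 5832 tested probe sets, 25.8% lay above that mean in both replicates and 23.6% below it in both. The shares above and below every piece were 3.88% and 3.1%. The other probe sets thus exceeded the general share for genes above the pieces, and did not for genes below.

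The probe sets above the pieces were bright ones. Their median level over the 12 arrays was 9656, against 2989 for those below and 3393 for all tested. Of the 584 brightest probe sets, with mean levels of 14761 and higher, 88 (15.1%) were above the pieces in both replicates and 10 below, and the median deviation of the hemisphere was 0.117 and 0.083 log2. After quantile normalization, which gives all arrays the same distribution, the same 584 held 27 above and 19 below, and their median deviation was -0.011 and 0.014 log2. Over all tested probe sets the counts then were 193 above and 162 below. Of the 226 above, 151 remained, of the 181 below, 148, and the 24 named genes all remained.

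The hemisphere arrays themselves were top-heavy. The 100 brightest probe sets held 19.1% of the signal of hemisphere replicate 1, against 15.2% to 17.3% in the pieces, and 17.0% of replicate 2, against 15.0% to 16.2%. The β-actin signal ratio (5' over 3' probe sets), a measure of how complete the copied RNA was, was lower in the hemisphere, at 0.604 against 0.665 to 0.831 in replicate 1 and 0.804 against 0.840 to 0.887 in replicate 2. The same ratio for GAPDH was 1.012, inside the pieces (0.982 to 1.157), in replicate 1 and 0.979, below them (1.004 to 1.143), in replicate 2. The part of either in the results was not tested.

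Among gene lists for functions and cell types, taken with 1 probe set per gene, that of the ribosomal proteins had the largest share of members above every piece. Of 13 tested members, 6 lay above every piece in both replicates, against 170 of all 4562 genes (3.73%). They were Rpl8, Rpl19, Rpl22, Rpl41, Rps3 and Rplp0. Rpl41 had 162452 and 134286 in the hemisphere, against highest pieces of 135713 and 121097. Rps3 had 83977 and 66759, against 61029 and 63844. After quantile normalization 2 of the 6, Rpl8 and Rpl22, were still above, and the list's median deviation, 0.40 and 0.17 log2 on the deposited scale, was 0.09 and -0.01. In limma 0 of the 13 differed from the mean of the pieces (adjusted p = 0.962 for each of the 6).

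Genes of oxidative phosphorylation and of protein turnover had smaller numbers above. The count over all 4562 genes was 170 (3.73%), and 159 after quantile normalization. Of 28 tested oxidative phosphorylation genes, 4 were above every piece (Cyc1, Ndufb5, Ndufb8 and Sdhb), and 3 after quantile normalization, while Sdha was below. Ndufb5, a subunit of complex I, had 46545 and 34958 in the hemisphere against 33475 to 37397 and 27221 to 30803 in the pieces. Of 28 proteasome and chaperonin genes, 4 were above (Psma2, Psmb1, Psmb3 and Psmd4), and 3 after quantile normalization. Psmb3 had 20751 and 18781 against highest pieces of 17579 and 17152. Both lists leaned upward in replicate 1 alone: 24 of 28 members of each were above the mean of the pieces there, against 11 and 12 of 28 in replicate 2. Of 23 splicing genes, Hnrnpu and Srsf5 were above. The oxidative phosphorylation and proteasome lists were bright, with median levels of 17938 and 15308. Among the 584 brightest probe sets of any function, 15.1% were above every piece in both replicates. A count of 4 in 28 is near that share, so it is not read as a trait of these functions.

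Genes that mark cell types lay within the pieces. Of 14 such lists, the summed level of 12 was inside the range of the pieces in both replicates, and blood was the only list above it in both. The blood sum was carried by Hba-a1, an α-globin, with 114292 and 84784 in the hemisphere against 70134 to 85335 and 70897 to 78318 in the pieces. After quantile normalization the blood sum was inside in replicate 2 (84948 against 84347 to 89853). Of the 12 blood genes, 4 were tested. No tested member of the other 13 lists lay outside the pieces in both replicates on its brightest probe set, the one used for the lists. The dimmer probe set of Tnc, a member of the radial glia list, lay below them, as given above. After quantile normalization 1 endothelial gene lay outside on the probe set used. The endothelial sum was below the pieces in replicate 1 (9391 against 10590 to 13314) and inside in replicate 2. Outside the cell type lists, Tuba1a, the main α-tubulin of young neurons, was above every piece (147592 and 132222 against highest pieces of 134655 and 120519) but not after quantile normalization, and Cplx1, a regulator of vesicle fusion, was below (2057 and 2148 against lowest pieces of 2701 and 2360).

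The GABAergic genes show how the hemisphere sat between contrasting pieces. Their summed level was 82914 and 76574 in the hemisphere, against 29299 and 24770 in the medial piece, which was lowest, and 143216 and 126493 in the ventral piece, which was highest. Sst, the interneuron peptide somatostatin, had 19220 and 21143 in the hemisphere, against 3969 and 1730 in medial and 50907 and 42183 in ventral pieces. Gad1, which makes GABA, had 12155 and 9462 in the hemisphere, against 3184 to 21535 and 2478 to 20368 in the pieces. The striatal peptide gene Penk had 3688 and 2935 in the hemisphere, between pieces of 366.5 to 10804 and 687.8 to 12985. All of these were intermediate in both replicates.

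The hemisphere was then tested against each piece on its own. These comparisons share the 2 hemisphere arrays and a single estimate of the spread, and they are given side by side. In limma 63 of 5832 probe sets (1.08%) differed from the ventral piece, 40 of them higher and 23 lower in the hemisphere. Only 4 (0.0686%) differed from the medial piece and 3 (0.0514%) from the dorsal piece. From the rostral and the occipital piece 0 differed (0%), with 234 and 146 at an unadjusted p under 0.05 and smallest adjusted p of 0.399 and 0.814. Without the rostral and occipital arrays the counts were 40 for ventral, 18 for medial and 15 for dorsal. The ventral count was 3 without ventral replicate 1, 1 without ventral replicate 2, 26 without hemisphere replicate 1, 2 without hemisphere replicate 2, 29 without a medial array and 17 without a dorsal array. The medial count was 0 without either medial array or hemisphere replicate 1, 9 without an occipital array and 2 without a dorsal or ventral array, and the dorsal count was 1 without any single medial, dorsal, ventral or hemisphere array. Of the 63 probe sets that differed from ventral, 56 lay inside the range of the pieces in both replicates. Over all 5832, the hemisphere lay outside for 37.3% in replicate 1 and 32.4% in replicate 2. A call against ventral picks probe sets with a distant ventral level, which widens the range. Lying inside is thus in part fixed by the choice. With the replicate number as a block the counts were 224 for ventral, 21 for medial and 1 for dorsal. Deviations of same-numbered arrays correlated at up to 0.562 between groups, and the fit without a block leaves such shared shifts in the spread.

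The 5 genes with the largest rise over the ventral piece were Mdk, Nfix, Ckap2, Eomes and Gas1. Mdk, the growth factor midkine, had 14190 and 16789 in the hemisphere and 2508 and 1869 in the ventral piece. The groups were far apart, by 2.83 ± 0.21 log2 (SE, adjusted p = 0.00224, 7.13-fold). Mdk was also high in the other pieces, from 11349 to 19542. Nfix, a nuclear factor I protein of radial glia, had 18014 and 34328 in the hemisphere against 3816 and 6241 in ventral (2.35 ± 0.39 log2, adjusted p = 0.0287), and a second probe set differed by 1.89. Gas1, a co-receptor for Hedgehog, had 3838 and 3767 in the hemisphere against 899.2 and 1177 in ventral (1.89 ± 0.21 log2, adjusted p = 0.0124).

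Ckap2, a protein of the mitotic spindle, had 3760 and 2580 in the hemisphere, and both ventral arrays were under the floor, so it was at least 4.49-fold higher (adjusted p = 0.0124). Eomes, the marker of intermediate progenitors, had 2512 and 2831 in the hemisphere, against 231.4 and 240.1 in ventral and 7361 and 9542 in medial pieces. It was at least 3.85-fold higher than in ventral (adjusted p = 0.0232), while a second probe set of the gene gave a difference of 0.49 log2. For Eomes the hemisphere was therefore low among the pieces other than ventral, under all of them except occipital replicate 1.

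Of 26 tested cell cycle genes, 8 were higher in the hemisphere than in the ventral piece and 0 lower, against 36 higher and 19 lower of all 4562 genes. They were Ccna2, Ccnb2, Cdk1, Cdc20, Mcm2, Mcm7, Rrm1 and Hmgb2. Cdk1, the kinase that drives mitosis, had 3074 and 3228 in the hemisphere against 1074 and 1197 in ventral (1.47 ± 0.17 log2, adjusted p = 0.0132), and Rrm1, a subunit of ribonucleotide reductase, 2709 and 3434 against 1027 and 1065 (1.54 ± 0.19 log2, adjusted p = 0.0132). The list's median difference from ventral was 0.89 log2, and that of all genes 0.00. From the other pieces it was -0.54 (medial), -0.08 (dorsal), -0.22 (rostral) and -0.20 log2 (occipital). The summed level of the list was inside the pieces in both replicates, with ventral lowest and medial highest. Without the rostral and occipital arrays 5 of these 8 passed (Ccnb2, Cdk1, Hmgb2, Mcm2 and Rrm1). None passed without ventral replicate 1, ventral replicate 2 or hemisphere replicate 2, and 3 to 5 without a medial or dorsal array or hemisphere replicate 1.

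Of 16 radial glia genes, Prom1, Aldoc and Dbi were higher in the hemisphere than in the ventral piece, and 2 of 17 pallial genes were (Eomes and Nfix). Over all 4562 genes 36 were higher and 19 lower. Lists share members: Eomes was also the only call of the olfactory bulb list, and Aldoc of the glycolysis list. The radial glia list had median differences of 0.26 log2 from ventral, 0.16 from dorsal, -0.50 from medial, -0.13 from rostral and -0.21 from occipital. For the pallial list they were 0.83 from ventral, -0.33 from dorsal, -0.48 from medial, -0.14 from rostral and -0.15 from occipital. Aldoc, a glycolytic aldolase, had 12838 and 15560 in the hemisphere against 5605 and 6267 in ventral (1.25 ± 0.21 log2, adjusted p = 0.0305). Without the rostral and occipital arrays 0 of these 3 radial glia genes passed, and of Eomes and Nfix, Eomes did. Neither list kept a call without ventral replicate 1, ventral replicate 2, hemisphere replicate 2 or either dorsal array, and radial glia also lost all calls without either medial array or hemisphere replicate 1. Gadd45g, a gene of stress and differentiation, was also higher than in ventral (1763 and 2069 against 627.9 and 533.9), and the heat shock gene Hspa1b was lower (693.8 and 797.7 against 1393 and 1876). They were 1 and 1 of 14 tested stress and immediate early genes, beside the 36 higher and 19 lower of all 4562. Both calls were lost with the floor at 2 times its value and without any single dorsal or ventral array or hemisphere replicate 2, and that of Hspa1b also without either medial array, hemisphere replicate 1 or the rostral and occipital arrays.

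The 5 largest differences downward from the ventral piece were those of Cyc1, Rasgrp2, Cdkn1a, Vsnl1 and Cpne6. Of 16 synaptic genes, Syt1, Nsf and Scg2 were lower and 0 higher, against 19 lower and 36 higher of all 4562 genes. The list's median difference was -0.65 log2 from ventral, 0.51 from medial, 0.28 from dorsal, -0.13 from rostral and -0.20 from occipital. Syt1, the calcium sensor of vesicle release, had 2543 and 3117 in the hemisphere against 5719 and 7494 in ventral (-1.22 ± 0.22 log2, adjusted p = 0.0440). Vsnl1, a neuronal calcium sensor, had 3442 and 3530 against 11974 and 10369 (-1.68 ± 0.22 log2, adjusted p = 0.0147). Without the rostral and occipital arrays 1 of these 3, Scg2, passed, and without ventral replicate 1, ventral replicate 2 or hemisphere replicate 2, 0. Leaving out any other single array left 1 or 2.

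Rasgrp2, an activator of Rap1 found in striatal neurons, had 971 and 864.2 in the hemisphere against 4325 and 2752 in ventral (-1.91 ± 0.30 log2, adjusted p = 0.0250). It was the only one of 8 striatal genes to differ, against 19 lower and 36 higher of all 4562 genes. Cdkn1a, the cell cycle inhibitor p21, had 957.8 and 872.5 against 2946 and 2899 (-1.68 ± 0.30 log2, adjusted p = 0.0393), and a second probe set differed by -1.17. Cpne6, a calcium-binding copine, had 968.3 and 1234 against 3640 and 3314 (-1.67 ± 0.25 log2, adjusted p = 0.0228). The Cyc1 r_at probe set also passed (-2.23 ± 0.38 log2, adjusted p = 0.0315), with hemisphere replicate 1 set to the floor, so that the size is a lower bound, while the bright Cyc1 probe set differed by 0.17. None of the 12 tested GABAergic genes passed against ventral, where the list's median difference was -0.84 log2.

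Npy, a peptide of interneurons, separated the hemisphere from the medial piece with little spread. It had 13100 and 14165 in the hemisphere, against 4480 and 4552 in the medial piece (1.59 ± 0.15 log2, adjusted p = 0.0104, 3.02-fold). The dorsal piece held the most, 26128 and 27370, then the ventral piece with 17194 and 14337, then occipital with 7591 and 7331 and rostral with 6319 and 6694. Hemisphere and ventral arrays did not overlap but differed by only -0.20 ± 0.15 log2 (adjusted p = 0.609). Npy was also among the 3 smallest p-values against rostral (1.07 ± 0.15 log2, adjusted p = 0.399) and against occipital (0.87 ± 0.15 log2, adjusted p = 0.814), without passing. The others were Cat, which encodes catalase, and Cyc1 against rostral, and Sf3a2 and Tmem11, a mitochondrial inner membrane protein, against occipital. Cat had 1957 and 2114 in the hemisphere against 588.8 and 860.8 in the arrays labelled rostral, and Tmem11 had 1662 and 1735 against 705.3 and 899.9 in those labelled occipital.

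Scg2, secretogranin II of neuropeptide granules, had 2940 and 2588 in the hemisphere while both medial arrays were under the floor, so that it was at least 3.98-fold higher (adjusted p = 0.0104). Vsnl1 was higher than in the medial piece, which had 1138 and 1036 (1.68 ± 0.22 log2, adjusted p = 0.0467), as well as lower than in ventral. Pter was at least 2.28-fold lower than in medial (adjusted p = 0.0458), with both hemisphere arrays under the floor. Against the dorsal piece, St6galnac5, a ganglioside sialyltransferase, had 3076 and 3136 in the hemisphere and 632.4 and 720.5 in dorsal (2.14 ± 0.25 log2, adjusted p = 0.0394). The dorsal arrays were under and just over the floor, so this size too is a lower bound. Ripor2 had 3207 and 2256 in the hemisphere against 773.3 and 727 in dorsal (1.84 ± 0.23 log2, adjusted p = 0.0394).

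Ccl4, a chemokine of activated myeloid cells, was above the floor in the dorsal piece alone. It had -281.4 and -108.2 in the hemisphere and 2746 and 3822 in the dorsal piece, and at most 523.6 in every other piece. It was at least 4.67-fold lower in the hemisphere than in dorsal (-2.22 ± 0.18 log2, adjusted p = 0.0032). The summed microglia and macrophage list, of which 5 of 14 members were tested, was inside the range of the pieces (7996 against 7137 to 8392, and 8960 against 6895 to 10804).

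**Figure D4:**
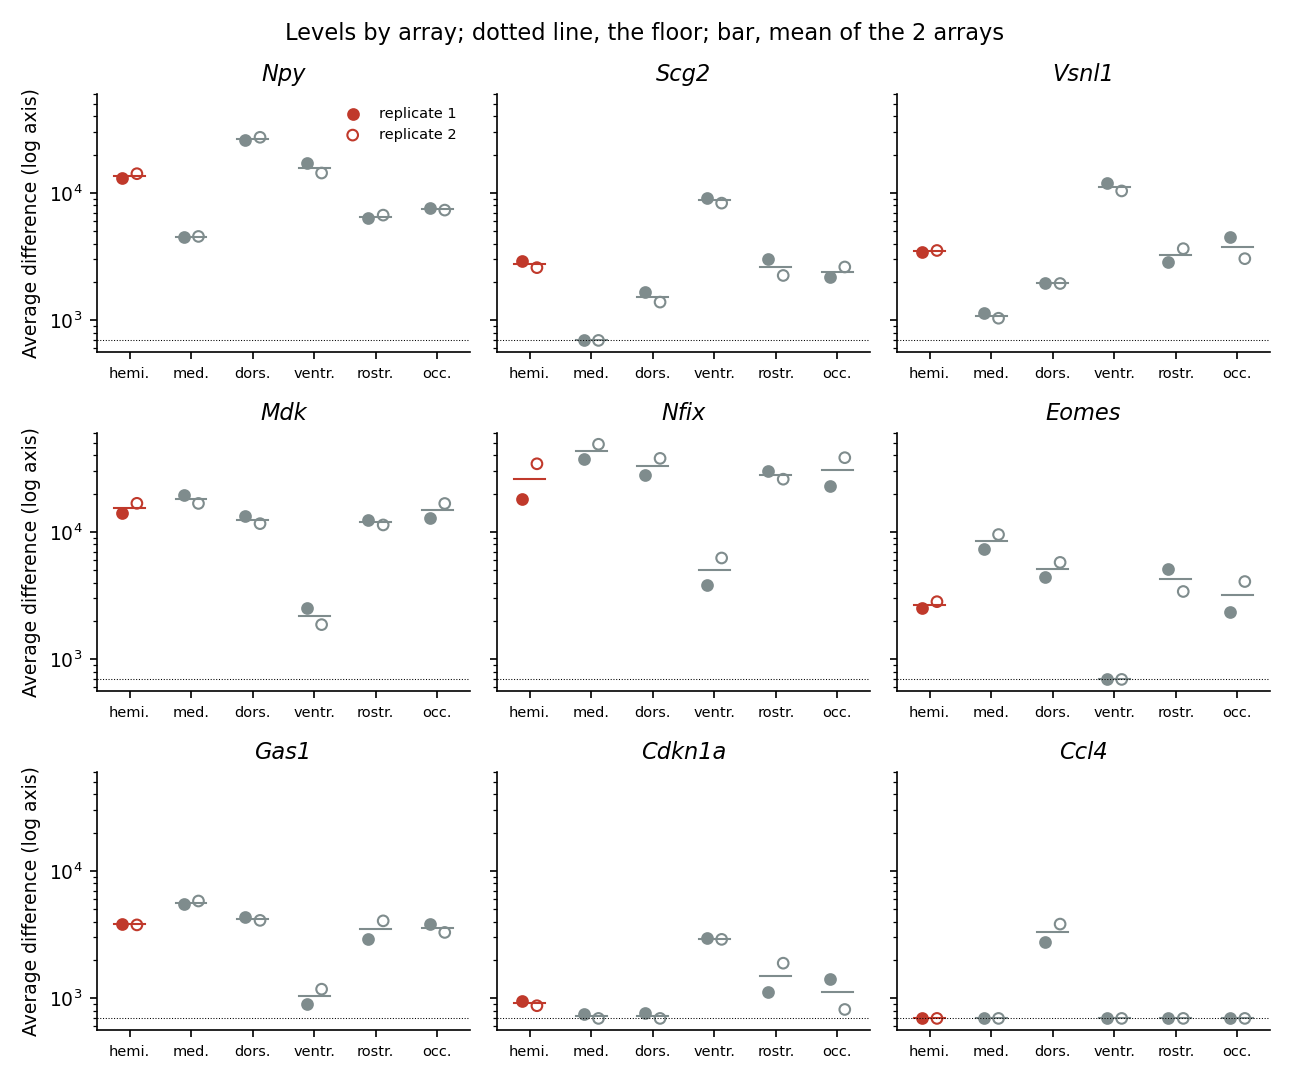
Average difference (log axis) of 9 named genes on each of the 12 arrays, hemisphere in red at the left and the pieces in grey, with replicate 1 filled, replicate 2 open, a bar at their mean and a dotted line at the floor of 693.5, at which lower values are drawn. The hemisphere lies between the lowest and highest pieces for Npy and Vsnl1 and far above ventral for Mdk, and Ccl4 is off the floor in the dorsal piece alone.

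Of 17 calls for named genes, Ccl4 against dorsal and Mdk against ventral passed whichever array was left out. Npy and Scg2 against medial lost theirs without either medial array or hemisphere replicate 1. Ckap2 lost its call without either ventral array, Gas1 without either ventral array or hemisphere replicate 2, and Vsnl1 and Cpne6 against ventral without any single ventral or hemisphere array. Eomes lost it without any single dorsal, ventral or hemisphere array, and Nfix without any single medial, dorsal or ventral array or hemisphere replicate 2. Cdkn1a, Rasgrp2, Cyc1 and, against dorsal, St6galnac5 lost it without any single medial, dorsal, ventral or hemisphere array. Vsnl1 and Pter against medial lost it when any single array other than an occipital one was left out, and Ripor2 whichever array was left out. Without the rostral and occipital arrays together, Ripor2, Nfix and Cpne6 also missed the threshold. With the replicate number as a block, St6galnac5 and Ripor2 against dorsal missed it.

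How far the hemisphere leaned towards each piece was first read from a mix of the pieces' linear values fitted without negative weights over 12422 probe sets. Weights are given as shares of their sum, which was 1.139 in replicate 1 and 1.088 in replicate 2. On the deposited scale the fit thus took more than 1 whole part of the pieces. In replicate 1 the weights were 37.3% medial, 0% dorsal, 18.3% ventral, 0% rostral and 44.4% occipital. In replicate 2 they were 16.7% medial, 9.64% dorsal, 11.2% ventral, 0% rostral and 62.4% occipital. Both replicates thus gave the occipital arrays the largest share and the rostral arrays none, and the medial share differed more than 2-fold between them. The fitted mix left a root mean square of 1617 and 944, little less than the 1731 and 1057 left by equal parts of the 5 pieces.

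The lean towards occipital did not hold on another scale. After quantile normalization the occipital weight of replicate 1 was 11.9% and its medial weight 52.1%, while replicate 2 kept 64.2% occipital. The weights then summed to 0.998 and 1.0 before division. With rostral and occipital averaged to a single component, the weights in replicate 1 were 42.7% medial, 1% dorsal, 26.6% ventral and 29.7% for that component, and in replicate 2 they were 12.2%, 5.23%, 8.54% and 74%.

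Likeness gene by gene gave no common order either. In replicate 1 the piece nearest to the hemisphere by the median absolute log2 difference was dorsal (0.25), then medial (0.258), rostral (0.269), occipital (0.289) and ventral (0.335). In replicate 2 it was occipital (0.158), then rostral (0.219), dorsal (0.234), medial (0.253) and ventral (0.271). The occipital array was the closest piece for 17.4% of the probe sets in replicate 1, the fewest, and for 32.0% in replicate 2, the most. The ventral piece had the largest median difference in both. Hemisphere replicate 1 correlated with the pieces of its number at r = 0.929 to 0.952 and with hemisphere replicate 2 at 0.901. For hemisphere replicate 2 the range was 0.931 (medial) to 0.969 (occipital), and this last was the highest r of any hemisphere array. The lean of replicate 2 towards occipital rests on that 1 array.

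**Figure D5:**
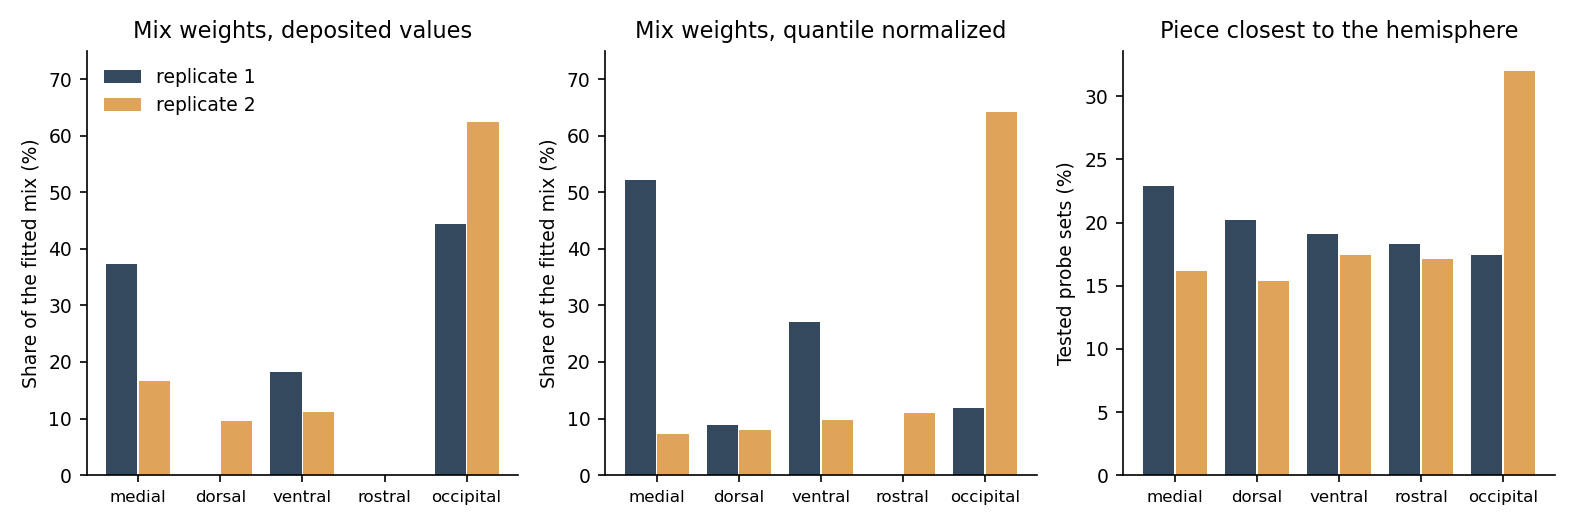
Share of each piece in the fitted mix (%) on the deposited values (left) and after quantile normalization (middle), and share of tested probe sets (%) for which a piece was the closest to the hemisphere (right), by replicate. Replicate 2 favours the occipital arrays in all 3 panels (62.4%, 64.2% and 32.0%), and replicate 1 does not after quantile normalization (11.9%) or by closeness (17.4%).

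Where 2 pieces differed by at least 1 log2 in the other replicate, the hemisphere's place between them could be read in each replicate. From medial to ventral it lay 40.7% of the way in replicate 1 (718 probe sets) and 47.3% in replicate 2 (703). From dorsal to ventral it lay 35.9% (479) and 41.2% (483) of the way. All 4 of these positions were short of the midpoint. For probe sets higher in ventral the hemisphere was 39.7% and 51.2% of the way from medial and 40.1% and 47.9% from dorsal, and for those lower in ventral 41.7% and 43.7%, and 30.4% and 33.4%. Among the few probe sets that differed by 2 log2, replicate 1 lay 50.8% of the way from dorsal to ventral (67 probe sets). From dorsal to medial it lay 48.7% (284) and 40.3% (129) of the way, but in replicate 1 this joined 19.4% for probe sets higher in medial with 85.2% for those higher in dorsal. The hemisphere of replicate 1 was thus near the lower piece for both kinds of probe set, whereas replicate 2 gave 43.9% and 33.6%.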

How the data were processed

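The authors deposited 1 value per probe set and array, the Affymetrix average difference (perfect match minus mismatch), a linear intensity that can be negative, per the labels' protocols. The label text breaks off there, so the software is not given in the sources used here. The deposited arrays share a scale, with 2% trimmed means of 2501.6 to 2501.9. Per the labels the RNA was poly(A)+, although the molecule field says total RNA.

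Values under 693.5, the quadratic mean of the negative values, were raised to that floor before log2, and probe sets above 1387 on at least 2 arrays were tested. The 66 control probe sets were left out. Of the 5832, the platform annotation names 5292 with 1 symbol (4562 genes), 212 with several and 328 with none. Two-sided tests used limma 3.58.1 (R 4.3.3), 1 fit with 6 group means, and p-values adjusted by Benjamini and Hochberg over the 5832. Folds use floored values and are "at least" where the lower side is at the floor; a difference with some floored arrays on its lower side is a lower bound. Arrays carry no counts, and their number limits the precision. The limma step was tested on simulated data.

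Genes named are the 12 above and 12 below farthest from the pieces, the 5 largest calls per direction in each comparison (or the 3 smallest p), and list members that passed or lay outside. List genes use the probe set with the highest mean. Members and lists were chosen with earlier results of these data known. Alternatives were other floors, filters, scales and normalization, a replicate block, and arrays or pieces left out.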

Additional observations from a re-analysis of the deposited data

How the results depend on the processing

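The count of probe sets outside the pieces in both replicates (407) was 7 for a margin of at least 0.5 log2, 234 against the pieces of the other replicate, 761 without the ventral piece and 686 without the rostral and occipital arrays (an alternative chosen after seeing the data), since fewer pieces make a narrower range; a single replicate gave 1887 to 2176. Calls against the mean of the pieces (0) were 1 with the floor at 2 times its value, 7 without a filter and 0 to 1 with an array left out. Calls against medial (4) were 1 with the higher floor, 13 without a filter, 7 after quantile normalization, 2 on an arcsinh scale, 9 with a trended robust spread, 18 without the rostral and occipital arrays, and 0 to 9 with an array left out (0 without either medial array or hemisphere replicate 1). Calls against dorsal (3) were 5 with the floor halved, 0 with it doubled, 11 without a filter, 15 without the rostral and occipital arrays, and 1 to 3 with an array left out. Calls against ventral (63) were 40 without the rostral and occipital arrays and 1 to 61 with an array left out: 3 and 1 without ventral replicate 1 and 2, 26 and 2 without hemisphere replicate 1 and 2, 29 without a medial and 17 without a dorsal array. Without a filter 5 and 4 probe sets passed against rostral and occipital. With the replicate number as a block the counts were 0 (mean), 21 (medial), 1 (dorsal, Ccl4), 224 (ventral), 0 (rostral) and 0 (occipital). Deviations of same-numbered arrays correlated between -0.06 (rostral with occipital) and 0.562 over the pairs of groups. For the hemisphere with each piece they correlated at 0.364 (rostral) to 0.502 (medial). The labels do not tie the numbers to a shared dissection, and the main fit used no block. The range, mix, position and likeness results, by contrast, match arrays by number. Over replicates, the mean mix weight of rostral (0%) was 5.65% without the 100 brightest probe sets and 5.45% after quantile normalization, and that of occipital (53.4%) 38.5% and 38.1%. The mean position from dorsal to ventral (38.5%) was 45.8% for probe sets differing by 2 log2, and that from dorsal to medial (44.5%) 55.0% for those and 50.6% with the higher floor. The mean median difference from medial (0.256 log2) was 0.245 after quantile normalization and 0.245 with the filter on 6 arrays. The causes of these shifts were not tested. Of 970 values of named genes under alternatives, 837 kept direction and side of the threshold, 131 lost the call, 2 gained one and 0 changed direction. Only 17 of the 47 named results had a call to lose, and all 131 losses fell on these. The 837 include the results without a call, so they do not measure how stable the calls were.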
